A study of Gallus gallus with 4 samples.

Results

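The genes described here are termed cytoplasmic structural, adaptor and other proteins. The study of immortal DF-1 cells placed them on its list of differentially expressed genes. Their cytoplasmic location is a label of that list and was not tested here. They are the accessions for which that list gave cytoplasm as the location and "other" as the molecule type, a class that left out what the list typed as enzymes, although some members, such as SELENBP1, have an enzymatic activity by present knowledge. Of 124 such accessions, 16 genes were left out by name, among them the myosins, SGCD, MAP2, several actin binding proteins, kinetochore proteins, SOCS1 and SOCS3. This left 108 genes with 109 probes, MAP1A having a pair of probes, out of 898 accessions of the list and 42034 gene probes of the array. The list itself was made by a 2 fold cutoff and a p-value on these 4 arrays, so the log2 ratios of the members are given as a description and without a test of their own.

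RNA of DF-1 cells, a spontaneously immortalized and non-transformed line of chicken embryo fibroblasts at high passage, was hybridized against RNA of primary chicken embryo fibroblasts (CEF) at low passage. The CEF cells came from dissociated whole embryos of a specific-pathogen free flock, so that other cell types may be present, and they were not the embryos from which DF-1 was derived. The study gives embryos of an endogenous-virus negative line as the origin of DF-1. Embryo origin and immortalization therefore cannot be told apart in any ratio. Each of 4 two-color arrays held DF-1 cRNA in Cy5 and CEF cRNA in Cy3. The dye and the cell line therefore cannot be told apart in these ratios. The study states that RNA spike-in controls served to adjust for possible dye effects. It also reported qPCR changes in the same direction for a set of its genes, none of them a member. The labels and the study's methods call the arrays biological replicates, whereas the design text of the record names 1 sample of each cell type, so an SD over the 4 arrays may cover technical error only. All values below are log2 ratios of DF-1 over CEF, in which 1 is a 2 fold higher and -1 a 2 fold lower signal in DF-1 cells, and a mean ± SD is over n = 4 arrays. In a bulk culture, fewer cells of a type and less RNA per cell cannot be told apart.

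Many proteins of this class work by binding, although some, such as HRASLS, PTPLAD1 and TRIM2, are enzymes. Actin binding proteins bundle, cap or anchor filaments and set the shape and adhesion of a fibroblast, microtubule proteins form the spindle, the cilium and the tracks of transport, and small GTPases are switched on by exchange factors (GEFs) and off by GTPase activating proteins (GAPs). Adaptors and scaffolds have no catalysis of their own and bring a kinase, a receptor or a ligase to its substrate, while mitochondrial assembly factors and ribosomal proteins build the respiratory chain. The roles named below are those known from mammals, since most of these proteins were characterized there.

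The signal of each gene comes from an oligo of 60 bases, and the oligos of the 6 members with the lowest ratios are shown by their first 30 bases, 5′ to 3′, so that the transcript behind each value can be looked up. They come from the readable part of the study's complete list, which held the oligo of 43 of the members, each with a negative mean, and no part of them is set in capitals.
C13orf15: atcaatgttgttactttgcagcagctggaa
HRASLS: ttttttaaacagcagttgtttcagtgcttg
PMP2: ttatttcctttcattgggaaaatgactgca
RIC3: gcacgctgagaaagcgcaacacaaaaggac
SELENBP1: atcgagtaatcagtgatttacagcacaaaa
KLHDC8B: ctcatgtagcacagaggtgccctgtagctc

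These 6 oligos differed from each other and had a GC content from 35.0% in C13orf15 and PMP2 to 55.0% in KLHDC8B. The poly(A) signal AATAAA, which marks the last stretch of a transcript, was searched on both strands of the 43 oligos and was found as written in 5 of them, in STMN1, SRP9, SASH3, S100A11 and C9orf91, which is 11.6%, against 7.73% of the 1773 readable oligos of the complete list. The reverse complement of AATAAA was in 1 of the 43 (2.33%) and in 4.06% of the 1773, and the variant ATTAAA was in 1 member, SYNM, and in 2.93% of the 1773. A window of 30 bases with AATAAA in capitals is shown for 3 of these oligos, to show how the letters lie in a probe. A match of these letters is a description and not a mapped site.
S100A11: ccttgttttttatgAATAAAggtttaaaat
STMN1: actgagtgactaAATAAAcctgcacagtgc
SASH3: acgcttgatcccAATAAAagcgtgctctgg

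Over all 4 arrays, 52 of the 109 probes had a positive mean log2 ratio and 57 had a negative one. Calls used the thresholds of the study's methods, an unadjusted p under 0.05 (here from limma) and a mean past 1 or -1. By these, 52 probes were called higher and 44 were called lower in DF-1 cells. The other 13 members, all negative, did not pass on these ratios, although the study listed them. For ARHGEF4, PKIA, NCALD, SNCG, TMEM126A and COLEC10, the study printed lower log ratios than the means given here. With the median of every array set to 0, each of these means lay closer to the printed ratio. In that order they were -1.89, -3.39, 1.61, 1.00, 1.44 and 3.54, and COLEC10 was still above its printed ratio. The study's ratios of the other members were not set beside these means here. Of the 13 members, 12 were called lower on that scale. The same scale left 9 members with a positive mean, which the study also listed, short of the threshold. The counts of 52 higher and 44 lower are therefore not the study's own calls. Over all gene probes 6.12% were called higher and 6.06% lower, 12.2% in all, and since the same arrays chose the members nothing is read from the larger share among them. The balance of these calls turned with the scaling: with the median of every array set to 0, 43 members were called higher and 56 lower, against 4.16% and 7.76% of all gene probes (11.9% in all), and with the median of the negative control spots set to 0, 35 were called higher and 56 lower, against 3.68% and 8.51%. Means of -2 or below were found in 19 members, down to -6.16, and means of 2 or above in 4, up to 3.75; over all gene probes these counts were 1037 and 440, and in the rest of the study's list 171 and 62. The median of the members was -0.83, which falls at the edge of the empty range between the negative and the positive members, against 0.22 over all gene probes. In the rest of the study's list, 352 of 793 probes (44.4%) had a positive mean, against 47.7% of the members. Among classes near to it, the share of positive means was 48.7% of 115 cytoplasmic enzymes, 65.5% of 87 nuclear proteins of type "other" and 28.0% of 50 plasma membrane proteins of type "other". These shares are descriptions, and their differences were not tested because all of these lists were chosen on the same ratios.

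**Figure D1:**
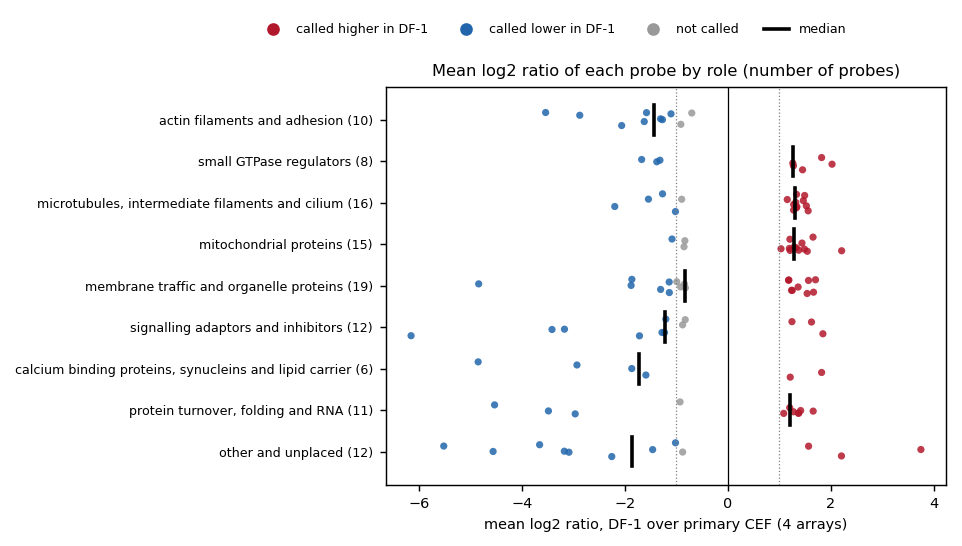
Mean log2 ratio of DF-1 over primary CEF (x axis, 4 arrays) for each of the 109 probes, in rows by the role of the protein with the number of probes in brackets. Colors give the call, black bars the median of a row, and dotted lines a 2 fold difference; all 10 actin and adhesion probes lie left of 0, and 12 of 15 mitochondrial probes lie right of it.

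Grouped by role, actin and adhesion proteins were all on the negative side, and mitochondrial proteins were mostly on the positive side. Of the 10 actin and adhesion probes, 0 were called higher and 8 lower, with a median of -1.45. Of the 15 mitochondrial probes, 12 were called higher and 1 lower, with a median of 1.28. Probes of microtubules, intermediate filaments and the cilium had 11 called higher and 4 lower among 16, and regulators of small GTPases had 5 higher and 3 lower among 8. Membrane traffic and organelle proteins were divided, 9 higher and 6 lower among 19, and signalling adaptors and inhibitors were mostly lower, 3 higher and 7 lower among 12. The other groups had 2 higher and 4 lower among 6 calcium binding proteins, synucleins and a lipid carrier, 7 higher and 3 lower among 11 proteins of turnover, folding and RNA, and 3 higher and 8 lower among 12 that were placed in no group. Over all gene probes 6.12% were called higher and 6.06% lower. The members were chosen on these arrays, so a call was largely fixed beforehand, and differences between groups were not tested.

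The lowest actin protein was PDLIM4, a PDZ and LIM domain protein of stress fibers, with -3.18, -3.45, -3.70 and -3.84 on arrays 1 to 4 (-3.54 ± 0.29). LSP1, an actin binding protein best known from leukocytes, had -2.87, -2.83, -2.84 and -2.99 (-2.88 ± 0.07), and its values ranged over no more than 0.16. CALD1, caldesmon, which holds actomyosin in check, had -2.58, -1.80, -2.48 and -1.39 (-2.07 ± 0.57). All 3 were below -1 on every array, and CALD1 was lower on arrays 1 and 3 than on arrays 2 and 4. FILIP1, which binds filamin, averaged -1.63 ± 0.22, CCDC88A, the actin binding protein girdin, -1.58 ± 0.45, and PHLDB2, which anchors microtubules at the cell cortex near adhesions, -1.31 ± 0.29. ADD3, an adducin that joins actin to spectrin, averaged -1.11 ± 0.25, and was short of the threshold without array 1, at -0.98.

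Coronins, a family of actin binding proteins, were measured by 2 members. CORO1C had -1.09, -1.49, -1.09 and -1.43 (-1.27 ± 0.21) and was called lower. CORO2A had -1.10, -0.90, -0.67 and -0.14 (-0.70 ± 0.41), the smallest mean of the set in size, and did not pass the threshold as deposited or with the median of every array set to 0. FERMT2, kindlin-2, which activates integrins, had -1.08, -0.89, -1.22 and -0.47 (-0.92 ± 0.33) and passed with the array medians set to 0, at -1.13, or without array 4, but not as deposited. Each of the 10 actin and adhesion probes was negative on all 4 arrays, and the highest single value among them was that of CORO2A on array 4. The absence of positive values partly follows from the names left out, since PLEK2, a pleckstrin that acts on actin and was left out by the rule, stood at 3.67 ± 0.29.

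**Figure D2:**
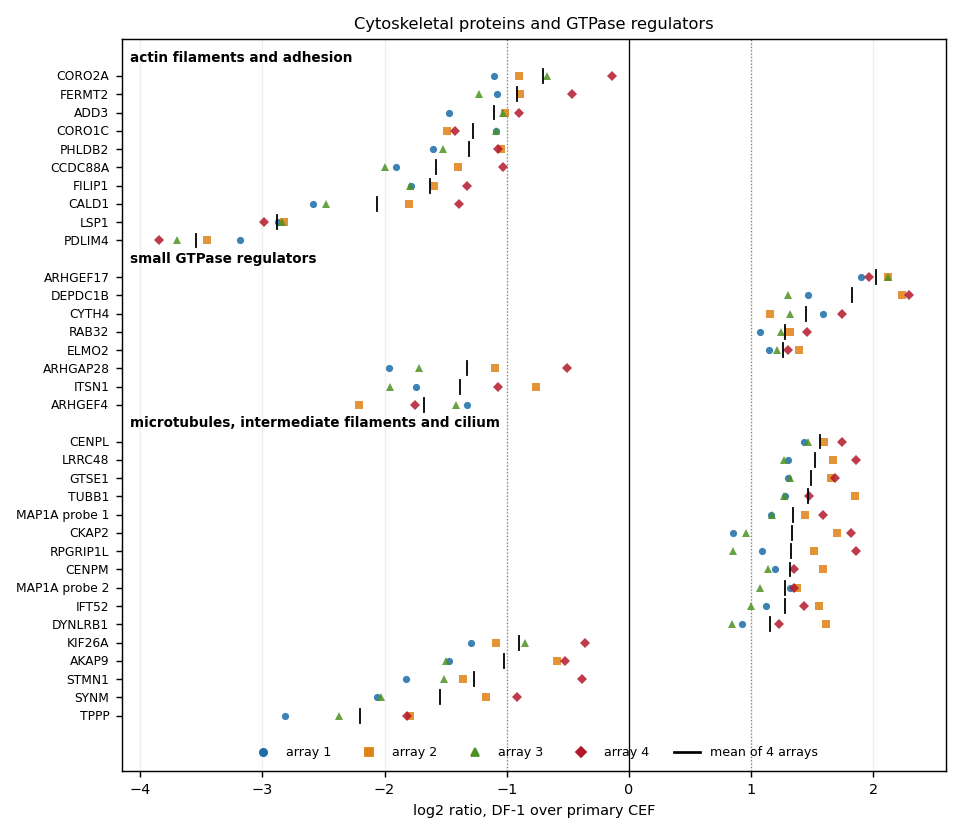
Log2 ratio of DF-1 over primary CEF (x axis) on each of the 4 arrays for members of the actin, GTPase and microtubule groups; markers are arrays, bars the mean, and dotted lines a 2 fold difference. The 10 actin and adhesion genes lie on the negative side on every array, whereas 5 of 8 GTPase regulators and 11 of 16 microtubule, filament and cilium probes lie on the positive side.

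Regulators of small GTPases went both ways. ARHGEF17, a guanine nucleotide exchange factor, had 1.89, 2.12, 2.12 and 1.96 (2.02 ± 0.11), while ARHGEF4, an exchange factor for Rac and Cdc42, had -1.33, -2.21, -1.42 and -1.75 (-1.68 ± 0.40). The values of these exchange factors did not overlap, which was largely fixed beforehand because both were chosen by a 2 fold cutoff on these arrays. DEPDC1B, a DEP domain protein, averaged 1.82 ± 0.51, CYTH4, a cytohesin that loads ARF GTPases, 1.45 ± 0.26, RAB32, a GTPase of melanosomes and mitochondria, 1.27 ± 0.16, and ELMO2, the partner of DOCK exchange factors for Rac, 1.26 ± 0.11. ARHGAP28, a GAP, averaged -1.32 ± 0.66, and ITSN1, intersectin, a scaffold of endocytosis with an exchange domain for Cdc42, averaged -1.38 ± 0.56. ARHGAP28 ranged from -1.97 on array 1 to -0.50 on array 4, the widest spread in this group.

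The members of the kinetochore, the spindle and the cilium were on the positive side, although NUF2, a kinetochore protein left out by name, stood at -1.85 ± 0.10. CENPL had 1.43, 1.60, 1.46 and 1.75 (1.56 ± 0.14) and CENPM had 1.19, 1.59, 1.14 and 1.35 (1.32 ± 0.20); both belong to the inner kinetochore. GTSE1, a microtubule binding protein of G2 and S phase, averaged 1.49 ± 0.21, and CKAP2, a spindle protein, 1.33 ± 0.50. Among proteins of cilia, LRRC48 of the dynein regulatory complex averaged 1.52 ± 0.29, RPGRIP1L of the transition zone 1.33 ± 0.45, and IFT52 of intraflagellar transport 1.28 ± 0.26. DYNLRB1, a light chain of dynein, had 0.92, 1.61, 0.85 and 1.23 (1.15 ± 0.35), the lowest of the positive members here, and without array 2 it was just short of the threshold. TUBB1, a beta tubulin, averaged 1.47 ± 0.27; beta tubulin genes are alike in sequence, so signal from other family members cannot be told apart.

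MAP1A, which stabilizes microtubules in neurons, was the gene with a pair of probes. The probe with the higher mean had 1.16, 1.44, 1.17 and 1.59 (1.34 ± 0.21) and the other had 1.32, 1.37, 1.07 and 1.35 (1.28 ± 0.14). The means of the probes differed by less than the SD of either probe.

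On the negative side of the same group stood 5 members. TPPP, which promotes the polymerization of tubulin and is known from oligodendrocytes, had -2.81, -1.79, -2.38 and -1.82 (-2.20 ± 0.49) and SYNM, the intermediate filament protein synemin of muscle, had -2.07, -1.17, -2.03 and -0.92 (-1.55 ± 0.59). STMN1, stathmin, which takes microtubules apart, had -1.83, -1.36, -1.51 and -0.39 (-1.27 ± 0.62), with array 4 above the others. AKAP9, a scaffold for protein kinase A at the centrosome and Golgi, had -1.47, -0.59, -1.50 and -0.52 (-1.02 ± 0.54) and was short of the threshold without array 1, at -0.87, and without array 3, at -0.86. KIF26A, an unconventional kinesin, averaged -0.90 ± 0.40 and was not called as deposited.

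Genes of the same pathways outside the set were counted from lists of actin, microtubule and mitochondrial genes. Nearly all genes with a symbol come from the study's own list, so these counts are no independent evidence. Over all gene probes 6.12% were called higher and 6.06% lower. Of 94 listed actin genes, 8 had a symbol and a probe, of which 2 were called higher and 3 lower, or 2 and 6 with the median of every array set to 0: EZR, ezrin, which ties actin to the membrane, averaged 1.31 ± 0.05, and MARCKSL1, a substrate of protein kinase C at the membrane, averaged -1.89 ± 0.62. Of 94 listed microtubule and filament genes, 9 had a symbol, with 10 probes of which 5 were called higher and 4 lower, with 2 lower without array 1 or without array 3, where both probes of TACC2 were short of the threshold; KIF11, the motor that separates spindle poles, averaged 1.40 ± 0.49, and TPX2, a spindle assembly factor, 1.93 ± 0.19. Of 45 mitochondrial entries, 8 genes were found, of which 4 were called higher and 4 lower. The higher ones were PHB, ATP5S, CHCHD1 and NDUFC2, with means from 1.43 to 1.56. The lower ones were SLC25A4, GLRX, VDAC1 and SLC25A15, with means from -7.48 to -3.15, which is further from 0 than any mitochondrial member. GLRX, at -4.37, is known mainly as a cytosolic glutaredoxin, so it counts as mitochondrial only by its place on this list.

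Mitochondrial members were for the most part proteins that assemble or express the respiratory chain. NFU1, a scaffold that delivers iron-sulfur clusters, had 2.19, 2.01, 2.11 and 2.52 (2.21 ± 0.22), the highest of them. TMEM126A, an assembly factor of complex I, averaged 1.65 ± 0.23, and ERAL1, which binds the ribosomal RNA of the small mitochondrial subunit, averaged 1.54 ± 0.08. UQCC and BCS1L, both needed to assemble complex III, had 1.46, 1.50, 1.36 and 1.62 (1.49 ± 0.10) and 1.38, 1.37, 1.50 and 1.50 (1.44 ± 0.07), which ranged over 0.25 and 0.14 between arrays. MTERFD1, a MTERF family protein of mitochondrial ribosome assembly, averaged 1.38 ± 0.39, and TMEM65, an inner membrane protein, 1.33 ± 0.44. Proteins of the large mitochondrial ribosomal subunit were a pair: MRPL46 had 1.32, 1.29, 1.17 and 1.35 (1.28 ± 0.08), and MRPL13 had 1.22, 1.25, 1.57 and 0.80 (1.21 ± 0.32).

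SLMO2, a carrier of phospholipids between the mitochondrial membranes, averaged 1.20 ± 0.27, and CHCHD4, the import receptor that oxidizes small proteins of the intermembrane space, 1.19 ± 0.31. GHITM, an inner membrane protein, had 1.15, 1.25, 0.89 and 0.84 (1.03 ± 0.20), the positive mean nearest to the threshold, and was short of it without array 1, at 0.99, and without array 2, at 0.96. A negative mean was found in 3 mitochondrial members. EFHA1, also known as MICU2, which gates the calcium uniporter, had -1.41, -0.69, -1.67 and -0.59 (-1.09 ± 0.53) and was short of the threshold without array 1, at -0.98, and without array 3, at -0.89. BNIP3L, a receptor for the removal of mitochondria, averaged -0.85 ± 0.49, and GLRX5, a glutaredoxin of iron-sulfur cluster assembly, -0.84 ± 0.11. Neither of these last 2 was called as deposited. With the median of every array set to 0, 8 of the 15 mitochondrial probes were called higher and 3 lower. GHITM at 0.82, CHCHD4 at 0.98, SLMO2 at 0.99 and MRPL13 just under 1 were then short of the threshold.

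**Figure D3:**
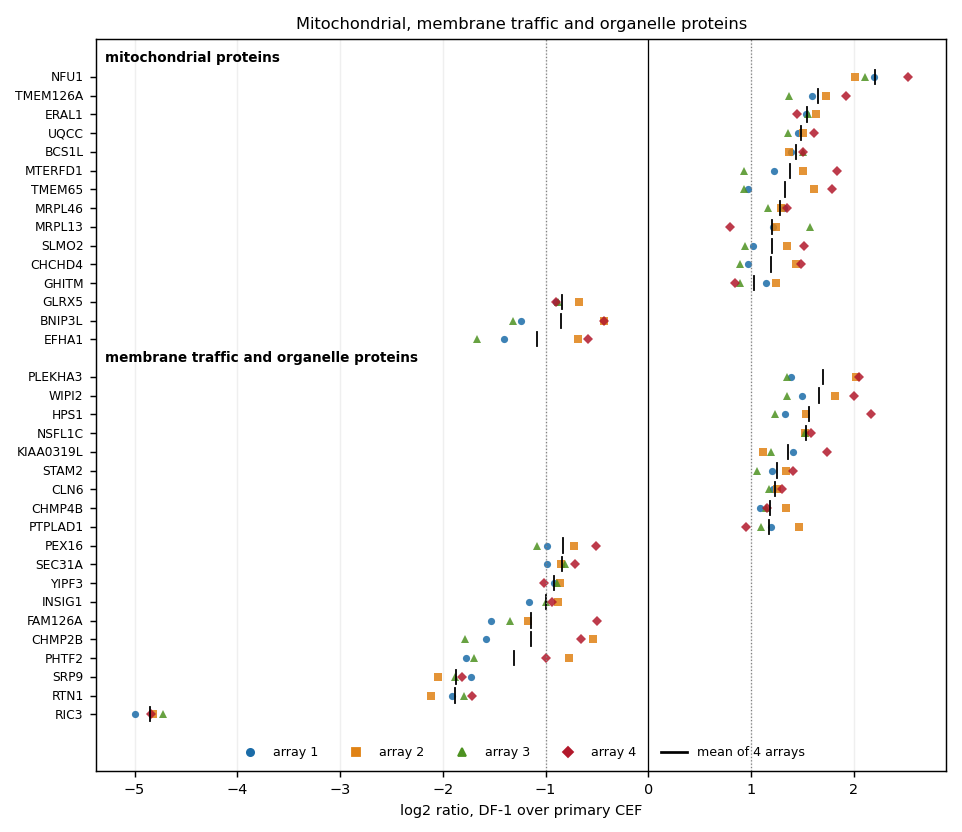
Log2 ratio of DF-1 over primary CEF (x axis) on each of the 4 arrays for the 15 mitochondrial and the 19 membrane traffic and organelle members; markers are arrays, bars the mean, and dotted lines a 2 fold difference. RIC3 lies apart from all others, near -5 on every array, and the positive members fall between 0.80 and 2.52.

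Proteins of membrane traffic and of organelles were divided, and 1 member stood far from the others. RIC3, a chaperone of the endoplasmic reticulum for nicotinic acetylcholine receptors, had -5.00, -4.82, -4.73 and -4.84 (-4.84 ± 0.11), which is 28.7-fold lower in DF-1 cells. Next came RTN1, a reticulon of the tubular endoplasmic reticulum best known from neurons, with -1.88 ± 0.17, and SRP9, a subunit of the signal recognition particle, with -1.87 ± 0.14. PHTF2, a membrane protein of the endoplasmic reticulum, averaged -1.31 ± 0.50, and FAM126A, the hyccin subunit of a phosphatidylinositol kinase complex, -1.14 ± 0.45. INSIG1, which retains the sterol sensor in the endoplasmic reticulum, had -1.16, -0.88 and -0.94 on arrays 1, 2 and 4 and lay at the threshold on array 3 (-0.99 ± 0.12), the negative mean that was nearest to the threshold without passing it. YIPF3 of the Golgi averaged -0.92 ± 0.07, SEC31A of the COPII coat -0.84 ± 0.11, and PEX16 of peroxisome formation -0.83 ± 0.26, and none of these 3 was called as deposited.

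On the positive side, PLEKHA3, which binds a phosphoinositide of the Golgi, had 1.39, 2.02, 1.35 and 2.05 (1.70 ± 0.38) and WIPI2, which recruits the conjugation machinery of autophagy, averaged 1.66 ± 0.29. HPS1, a subunit of the exchange factor for RAB32 and RAB38 in melanosome biogenesis, averaged 1.57 ± 0.42. NSFL1C, the p97 cofactor p47, had 1.53, 1.53, 1.52 and 1.58 (1.54 ± 0.03), the smallest SD of all members. KIAA0319L, a membrane receptor that traffics to the Golgi, averaged 1.36 ± 0.28, STAM2, an ESCRT-0 adaptor, 1.25 ± 0.15, CLN6, an endoplasmic reticulum protein lost in a storage disease of neurons, 1.24 ± 0.06, and PTPLAD1, a dehydratase of fatty acid elongation, 1.18 ± 0.22.

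The ESCRT-III subunits, which pinch off membranes, were represented by a pair with opposite signs. CHMP4B had 1.09, 1.34, 1.14 and 1.16 (1.18 ± 0.11), and CHMP2B had -1.58, -0.54, -1.79 and -0.66 (-1.14 ± 0.63). CHMP4B was alike on all arrays, whereas CHMP2B was about 1 unit lower on arrays 1 and 3 than on arrays 2 and 4, and its mean was short of the threshold without array 1 or without array 3. With the median of every array set to 0, CHMP4B was at 0.97 and not called.

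The lowest member of the whole set was C13orf15, also known as RGCC, a cytoplasmic regulator of the cell cycle that responds to complement and p53. It had -6.21, -6.38, -5.72 and -6.33 (-6.16 ± 0.30), 71.5-fold lower in DF-1 cells. C7orf16, also known as PPP1R17, an inhibitor of phosphatase 2A known from Purkinje cells, had -3.58, -3.47, -3.66 and -2.97 (-3.42 ± 0.31), and PKIA, the peptide inhibitor of protein kinase A, had -3.50, -3.11, -3.14 and -2.96 (-3.18 ± 0.23). All 3 were more than 4 fold lower in DF-1 cells on each array. IL17RD, which dampens fibroblast growth factor signalling, had -2.15, -1.25, -2.32 and -1.16 (-1.72 ± 0.60), about 1 unit lower on arrays 1 and 3 than on arrays 2 and 4.

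Among adaptors, SASH3, known from lymphocytes, averaged -1.28 ± 0.32, PIK3AP1, which couples B cell receptors to phosphoinositide 3-kinase, -1.23 ± 0.22, and GRB10, which binds the insulin receptor, -1.21 ± 0.26. IKBIP, a protein named for binding an IkB kinase, averaged -0.88 ± 0.24 and PPP1R3B, which targets phosphatase 1 to glycogen, -0.83 ± 0.25; neither was called as deposited. The 3 members on the positive side were AXIN2, SOCS2 and YWHAB. AXIN2, the scaffold of the beta-catenin destruction complex and itself a target of Wnt signalling, had 1.46, 2.13, 1.49 and 2.30 (1.85 ± 0.43). SOCS2, which limits growth hormone signalling, had 1.77, 1.13, 2.24 and 1.35 (1.62 ± 0.49), higher on arrays 1 and 3, and YWHAB, a 14-3-3 protein, averaged 1.24 ± 0.11.

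**Figure D4:**
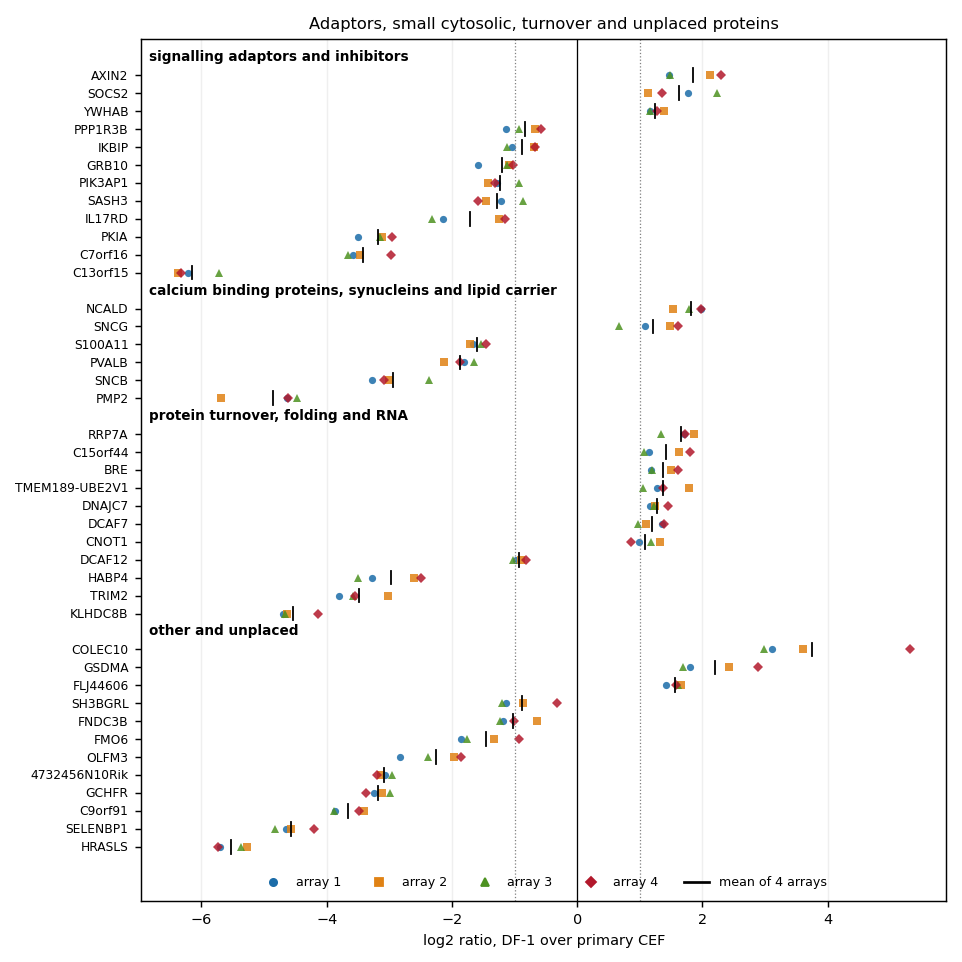
Log2 ratio of DF-1 over primary CEF (x axis) on each of the 4 arrays for members of the remaining groups; markers are arrays, bars the mean, and dotted lines a 2 fold difference. C13orf15 and HRASLS lie below -5 on every array, and COLEC10 lies highest with array 4 at 5.31.

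Beta and gamma synuclein, small proteins of the same family, had opposite signs. SNCB had -3.28, -3.01, -2.37 and -3.08 (-2.93 ± 0.39), and SNCG had 1.08, 1.49, 0.67 and 1.60 (1.21 ± 0.42). The lowest value of SNCG lay 3.04 above the highest value of SNCB. Both were chosen by a 2 fold cutoff on these arrays, so some separation was fixed beforehand. SNCG was at 0.93 and not called when the negative control probes of each array were set to a median of 0, while SNCB was called lower under each alternative run. PMP2, a fatty acid binding protein of myelin, had -4.63, -5.69, -4.48 and -4.63 (-4.85 ± 0.56), with array 2 about 1 unit below the others.

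Calcium binding proteins of the EF-hand type also differed in sign. NCALD, neurocalcin, had 1.98, 1.53, 1.79 and 1.98 (1.82 ± 0.22), whereas PVALB, parvalbumin of fast muscle and interneurons, averaged -1.87 ± 0.20, and S100A11, whose oligo window with AATAAA is shown above, averaged -1.59 ± 0.12. The SD of these 3 genes was at most 0.22.

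In protein turnover and RNA handling, 3 members were far below the others. KLHDC8B, a kelch protein of the midbody, had -4.70, -4.63, -4.66 and -4.14 (-4.54 ± 0.26). TRIM2, a ubiquitin ligase of neurons, had -3.80, -3.02, -3.58 and -3.56 (-3.49 ± 0.33), and HABP4, which binds hyaluronan and RNA, had -3.27, -2.61, -3.49 and -2.50 (-2.97 ± 0.49). On every array all 3 were more than 4 fold lower in DF-1 cells. A pair of substrate receptors of the CUL4 ligase differed in sign: DCAF7 had 1.36, 1.10, 0.96 and 1.38 (1.20 ± 0.20), and DCAF12 had -0.98, -0.90, -1.03 and -0.82 (-0.93 ± 0.09), which was not called. RRP7A, a factor of ribosomal RNA processing, had 1.71, 1.87, 1.33 and 1.71 (1.66 ± 0.23). C15orf44, whose product belongs to the Integrator complex, averaged 1.41 ± 0.36, BRE, a subunit of the BRCA1-A complex, 1.38 ± 0.22, DNAJC7, a cochaperone of HSP70 and HSP90, 1.27 ± 0.13, and CNOT1, the scaffold of the CCR4-NOT deadenylase, 1.08 ± 0.21. The probe of TMEM189-UBE2V1, named for a read-through transcript, averaged 1.37 ± 0.31, and which of the joined genes it measures is not known.

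Of the members placed in no group, HRASLS, a phospholipase and acyltransferase that holds back RAS signalling, had -5.71, -5.27, -5.38 and -5.74 (-5.52 ± 0.24), 46.0-fold lower in DF-1 cells. SELENBP1, a selenium binding protein that oxidizes methanethiol, had -4.65, -4.57, -4.83 and -4.21 (-4.56 ± 0.26), and C9orf91, also known as TMEM268, had -3.87, -3.41, -3.88 and -3.48 (-3.66 ± 0.25). GCHFR, which mediates feedback on the synthesis of tetrahydrobiopterin, had -3.24, -3.12, -2.99 and -3.37 (-3.18 ± 0.16). These 4 were far below the threshold on every array. The accession that the study named 4732456N10Rik had -3.07, -3.13, -2.96 and -3.20 (-3.09 ± 0.10), and OLFM3, an olfactomedin of the nervous system, had -2.83, -1.96, -2.38 and -1.86 (-2.26 ± 0.44).

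FMO6, a pseudogene of the flavin monooxygenases in humans, averaged -1.46 ± 0.42, FNDC3B, a protein of adipocyte differentiation, had -1.19, -0.64, -1.24 and -1.01 (-1.02 ± 0.27), and SH3BGRL, a small thioredoxin-like protein, averaged -0.88 ± 0.40. FNDC3B was short of the threshold without array 1, at -0.96, and without array 3, at -0.95. On the positive side, COLEC10, a collectin that binds sugars of microbes, had 3.10, 3.60, 2.99 and 5.31 (3.75 ± 1.07), and GSDMA, a gasdermin that forms membrane pores, had 1.81, 2.43, 1.70 and 2.89 (2.21 ± 0.56). Both were highest on array 4, and COLEC10 had the widest SD of all members and averaged 3.23 without array 4. FLJ44606, a glutaredoxin-like protein, averaged 1.57 ± 0.10.

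Near the threshold, the positive members just inside it were GHITM at 1.03 and CNOT1 at 1.08, and no positive member lay below 1. The negative members just inside it were FNDC3B and AKAP9, both at -1.02, and those just outside were INSIG1 at -0.99 and DCAF12 at -0.93. In all, 13 negative members lay between -0.99 and -0.70. Setting the median of every array to 0 brought 12 of these past the threshold, all but CORO2A, and left 9 positive members short of it (DYNLRB1, GHITM, CHCHD4, SLMO2, MRPL13, PTPLAD1, CHMP4B, CNOT1 and DCAF7). At a 3 fold threshold, 12 members were called higher and 26 lower, against 2.09% and 3.5% of all gene probes (5.59% in all).

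The level of the arrays differed. The medians of all gene probes on arrays 1 to 4 were -0.04, 0.20, 0.21 and 0.47, and those of the 153 negative control spots were 0.02, 0.17, 0.38 and 0.53. The members with a positive mean had medians of 1.29, 1.52, 1.22 and 1.58, and those with a negative mean had -1.77, -1.40, -1.72 and -1.16. Arrays 2 and 4 thus read higher than arrays 1 and 3 for both kinds of members, by single probe in 72 of 109 members (66.1%), against 44.5% of all gene probes. The reverse order was seen in 8 members (7.34%), against 5.92% of all gene probes. With the array medians set to 0, the order held in 33 members (30.3%) and the reverse in 18 (16.5%), against 25.1% and 20.2% of all gene probes. No label names a batch of arrays, and the part of this pattern in any single ratio was not tested.

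**Figure D5:**
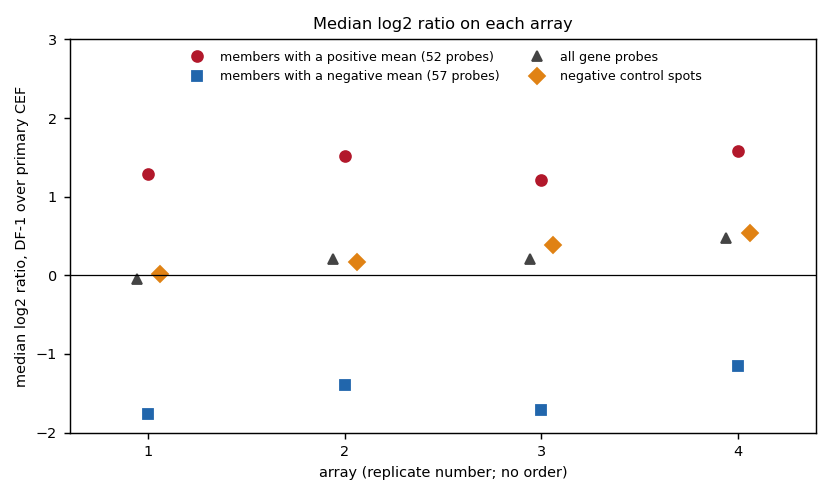
Median log2 ratio of DF-1 over primary CEF (y axis) on each array (x axis) for the 52 members with a positive mean, the 57 with a negative mean, all gene probes and the negative control spots. The 4 medians of the negative members lie between -1.77 and -1.16 and those of the positive members between 1.22 and 1.58, with gene probes and controls between -0.04 and 0.53.

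The deposited ratios carry no intensity, and some of them repeat. On arrays 1 to 4, 42.4%, 43.5%, 37.6% and 36.5% of the gene probes had a ratio that at least 5 spots of the array shared to the last digit, and up to 713 spots shared 1 value. Among the members, no probe had such a ratio on arrays 1 to 3, and KIF26A had one on array 4. The cause of the repeated ratios was not tested. The SD over the arrays had a median of 0.26 for the members and 0.30 for all gene probes, from 0.03 for NSFL1C to 1.07 for COLEC10.

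Several members are best known from neurons, glia or muscle, so markers of those cells were counted outside the set. Of 18 neuron markers, 1 had a symbol, MAP2, at -1.82 ± 0.15. Of 9 glia markers, 2 had one: SOX10 at -1.82 ± 0.70 and FABP7 at 2.04 ± 0.21. Of 20 muscle markers, 2 had one, and both were called lower: MYL4 at -3.14 ± 0.05 and MYOD1 at -1.22 ± 0.23. The list held no MYH6, a cardiac muscle myosin that the study reports among its most up-regulated genes in DF-1 cells. These 2 markers therefore do not stand for muscle genes as a whole. Of 14 fibroblast markers, 7 had a symbol, with 9 probes that were all called lower, at a median of -2.48. DCN, decorin of the extracellular matrix, was at -4.66 ± 0.22. Over all gene probes 6.12% were called higher and 6.06% lower. Every marker found was on the study's own list, which was chosen on these arrays. A call was thus largely fixed beforehand, and these counts are no independent evidence. The other markers on these lists had no probe with a symbol here, ratios do not show whether a marker was expressed, and the part of other cell types in the values of the members was not tested.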

How the data were processed

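RNA of DF-1 cells (Cy5) and primary CEF cells (Cy3) was hybridized on 4 two-color Agilent chicken arrays. Per the study's methods, the authors corrected the background and normalized the intensities by loess. They deposited a linear ratio of DF-1 over CEF for 45220 spots on each array. The median log2 ratio of all gene probes ran from -0.04 on array 1 to 0.47 on array 4. Whether the deposited ratios hold the loess step was not tested. The log2 ratio of every spot was also deposited by the authors, in a table that differed from the log2 of the linear ratio by at most 5e-05 and had 0 missing values. Intensities, genome build and coordinates were not used here, so no filter on dim spots could be set, and precision is limited by there being 4 arrays. The authors' columns named as mean and SD of log fold change hold the mean and SD of the linear ratios and were not used.

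The mean log2 ratio of each of 42034 gene probes was fitted with limma 3.58.1 in R 4.3.3 (lmFit and eBayes, intercept only). Calls needed a mean log2 ratio past 1 or -1 together with an unadjusted p under 0.05, as in the study's methods, without further centring. The fit was tested on simulated data with a common variance and no offset between arrays. That test therefore does not cover the uneven spread and the differing array levels of the real data. Alternatives were array medians or negative control medians at 0, Benjamini-Hochberg adjusted p, a 3 fold or no fold threshold, limma's treat, a robust fit, a common spread, the median over arrays, and leaving out each array. No p-value of a member is given, since the members were chosen on this contrast.

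Members were joined by accession and placed in 9 role groups by what their proteins are known to do. Every member is named; values on each array are given for means of 2 or more in size, the ends of each role group, family pairs and the members nearest to the threshold. The members, the role groups and the lists of actin, microtubule, mitochondrial and marker genes were chosen with earlier results of these data known. Outside the members, 3 listed actin genes (EVL, PLS3 and ACTR2) were not called as deposited but were called lower with array medians at 0. The list medians were -0.94 for actin, 0.84 for microtubule and -0.86 for mitochondrial genes, GLRX included. Gene names are those of the study, since the arrays' own annotation was not used here; 951 gene probes had a symbol, and 91 of the 108 member symbols stood in a RefSeq gene table of the chicken. Oligo sequences were read from the study's complete list.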

Additional observations from a re-analysis of the deposited data

Results flagged for a closer look

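In 5 of the 109 probes, 1 array stood apart from the other 3, with a gap over the whole range above Dixon's critical value for 4 arrays; chance does this in about 5% of groups. GLRX5 was at -0.67 on array 2, against -0.90 to -0.88 on the others, with a gap of 0.939 of the range. PMP2 was at -5.69 on array 2, against -4.63 to -4.48 on the others, with a gap of 0.8753 of the range. GRB10 was at -1.59 on array 1, against -1.12 to -1.03 on the others, with a gap of 0.844 of the range. KLHDC8B was at -4.14 on array 4, against -4.70 to -4.63 on the others, with a gap of 0.875 of the range. NSFL1C was at 1.58 on array 4, against 1.52 to 1.53 on the others, with a gap of 0.880 of the range, although its SD was the smallest of all members.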

How the results depend on the processing

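No paired analysis was possible because the arrays form 1 group, with no second group to pair them with by number; each ratio already sets DF-1 against CEF within an array. No member or group median changed its sign under any alternative run. That outcome was largely fixed beforehand, since the members were chosen by a 2 fold cutoff on these arrays. The runs that changed only the test or the threshold also left the means as they were. At a 3 fold threshold 12 members were called higher and 26 lower, 38 in all, against 5.59% of all gene probes. With limma's treat, 38 members were called higher and 32 lower, 70 in all, and 26 members lost their call. The share of all gene probes under treat was not counted. With the array medians at 0, every mean over the 4 arrays was lower, and the median of the members was -1.04. The group medians were then 1.06 for GTPase regulators, -1.04 for membrane traffic and -1.43 for signalling adaptors. They were -1.94 for calcium binding proteins, synucleins and the lipid carrier, and 0.99 for turnover, folding and RNA. With the negative control medians at 0, the median of the members was -1.11, and the group medians were -1.72 for actin and adhesion, 0.99 for GTPase regulators, 1.02 for microtubules, filaments and cilium, 1.01 for mitochondrial proteins, -1.10 for membrane traffic, -1.50 for signalling adaptors, -2.01 for calcium binding proteins, synucleins and the lipid carrier, and 0.92 for turnover, folding and RNA. Leaving out each array in turn gave 50 to 52 members called higher and 39 to 48 called lower, 90 to 100 in all, with a median of all members from -0.89 to -0.73. The group medians without 1 array ranged from -1.56 to -1.39 (actin), 1.23 to 1.32 (GTPase), 1.20 to 1.37 (microtubule), 1.22 to 1.32 (mitochondrial), -0.89 to -0.74 (traffic), -1.29 to -1.15 (signalling), -1.78 to -1.67 (calcium), 1.15 to 1.28 (turnover) and -2.02 to -1.70 (unplaced). Of the 96 called members, 89 kept the call in each of these fits and 7 lost it in at least 1; of the 13 others, 4 gained a call in at least 1.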
